A study of Mus musculus with 8 samples.

Results

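The T cell receptor complex and its coreceptors were followed through 9 genes of the 25006 gene identifiers counted in each tumor library. The genes were chosen by name for their place in the complex, and all 9 were found by matching the Ensembl identifiers of the count tables to mouse symbols. They were 4 chains of the complex (Cd3e, Cd3d, Cd3g and Cd247), 3 coreceptor chains (Cd4, Cd8a and Cd8b1) and 2 kinases (Lck and Zap70). The antigen-binding chains of the T cell receptor have no signalling tails of their own and reach the cell surface together with the CD3 epsilon, delta, gamma and zeta chains. CD4 binds MHC class II and CD8 binds MHC class I, and both carry the kinase LCK to the receptor, where it phosphorylates the tails of the CD3 and zeta chains and so recruits ZAP-70. In tumors these transcripts serve as markers of T cells, although Cd4 is also transcribed in some dendritic cells and Cd247, Lck and Zap70 also act in NK cells.

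RNA was sequenced from tumors of the mouse mammary carcinoma line 4T1, a Balb/c-derived model of triple negative breast cancer, taken no later than 20 days after injection into the fat pad. The series addressed gene expression in tumors with and without CD95, the death receptor encoded by Fas, in NSG mice, an immunodeficient strain without mature T, B or NK cells, and in immunocompetent Balb/c mice. There were 4 groups of 2 libraries. NSG wild type and Balb/c wild type each held a parental 4T1 tumor and a tumor of the line labelled vCas9, both labelled wild type. NSG knockout and Balb/c knockout each held tumors of CRISPR/Cas9 CD95 knockout clones 54 and 69. The libraries of a group therefore came from different lines, and since the knockouts are clones and no clonal origin is given for the wild-type lines, clonality and CD95 status cannot be told apart. Whether a library held 1 tumor or several is not given in the sources used here, so p-values measure the spread between these samples only.

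Total counts ran from 8.68 M to 19.7 M per library (M, mega), a 2.26-fold span, and 3 counts corresponded to 0.159 to 0.321 CPM, the depth-scaled count computed here with TMM-scaled totals. The targeted gene did not separate the labels by the test. Fas stood at 28.2 ± 7.96 CPM in NSG wild type, 21.2 ± 11.7 in NSG knockout, 49.3 ± 3.34 in Balb/c wild type and 30.4 ± 4.64 in Balb/c knockout (SD, n = 2 each), with edgeR adjusted p-values of 0.628 and 0.225 for the knockout contrast in the NSG and Balb/c hosts. The knockout status used below rests on the labels. The epithelial markers Krt8 and Epcam of the carcinoma were read in every library, at levels that differed within groups. The sum of 7 such markers was 735 to 4184 CPM over the Balb/c knockout libraries and 769 to 2020 CPM over the Balb/c wild-type libraries. The pair of Balb/c knockout libraries resembled each other least, with a correlation of log2 CPM across genes of 0.956 against 0.971 to 0.984 in the other groups.

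The CD3 genes lie together on chromosome 9 (GRCm38). Cd3g (ENSMUSG00000002033, 44969572 to 44980431, minus strand) and Cd3d (ENSMUSG00000032094, 44981786 to 44987339, plus strand) start 1355 bases apart and are read in opposite directions, and Cd3e (ENSMUSG00000032093, 44998740 to 45009627, minus strand) starts 27841 bases from Cd3d. The stretches around their starts are shown as description, and no tie between these letters and the values below was tested. Each runs 5′ to 3′ on the gene's strand, from 250 bases before the RefSeq start to 10 bases after it, in GRCm38.p6, with matches to the searched letters in capitals.
Cd3e, chr9:45009602-45009861, minus strand: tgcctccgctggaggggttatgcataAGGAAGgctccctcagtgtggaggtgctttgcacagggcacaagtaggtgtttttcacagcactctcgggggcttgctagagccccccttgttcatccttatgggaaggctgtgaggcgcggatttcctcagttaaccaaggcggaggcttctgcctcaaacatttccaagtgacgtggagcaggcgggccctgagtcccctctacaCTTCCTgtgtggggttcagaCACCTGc
Cd3d, chr9:44981536-44981795, plus strand: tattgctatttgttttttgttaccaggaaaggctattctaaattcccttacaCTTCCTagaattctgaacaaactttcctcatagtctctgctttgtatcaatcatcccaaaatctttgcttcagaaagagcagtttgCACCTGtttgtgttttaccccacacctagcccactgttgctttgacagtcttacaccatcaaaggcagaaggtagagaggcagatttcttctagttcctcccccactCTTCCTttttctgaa
Cd3g, chr9:44980422-44980681, minus strand: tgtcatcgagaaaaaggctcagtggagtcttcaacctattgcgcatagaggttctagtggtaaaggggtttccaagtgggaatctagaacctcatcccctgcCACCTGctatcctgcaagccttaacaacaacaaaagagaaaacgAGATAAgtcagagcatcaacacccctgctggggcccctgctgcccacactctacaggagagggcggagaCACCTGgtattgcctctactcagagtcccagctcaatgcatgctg

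The letters searched, on both strands, were AGGAAG for the core of an ETS motif, CACCTG for an E-box of the kind that E proteins bind, and AGATAA for a GATA motif, all of them families of factors active in T cells. On the other strand the ETS letters read CTTCCT. RefSeq windows of 300 bases were at hand for 7 of the 9 members, 10 windows in all. Lck and Zap70 gave several windows each, so the windows are not independent and their counts are not counts of genes. The ETS letters were in 7 of the 10 windows, against 35.4% of 32851 mouse promoter windows of the same length. The E-box was in 8 of 10 (20.2% of all windows), TGTGGT, the RUNX letters, in 2 (16.8%), the GATA letters in 1 (11.2%) and TATAAA in 0 (13.6%). Cd3e and Cd3d each held 2 ETS matches and 1 E-box, and Cd3g held 2 E-boxes and a GATA match with no ETS match. The Cd8a window held no match to any of the searched letters. No match overlapped a match of another motif in the stretches shown, and a match describes letters in the window, not binding.

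The host comparison asked how the same lines differ between an immunodeficient and an immunocompetent mouse. All 9 members were higher in Balb/c than in NSG tumors, both in wild type and in knockout. The edgeR quasi-likelihood test with Benjamini-Hochberg adjustment over 15310 genes called 9 of 9 higher among wild-type tumors, where 15.3% of all genes tested were called higher, and 9 of 9 among knockout tumors, against 15.7%. For every member the groups did not overlap in either comparison, as was true in that direction of 35.4% and 32.4% of genes. The members' median log2 fold change was 5.80 in wild type and 6.32 in knockout, and that of all genes was -0.08 and 0.02, which scaling by total counts shifted to -0.24 and -0.17. Their summed level was 9.44 to 9.76 CPM in NSG wild type, 5.46 to 7.56 in NSG knockout, 333 to 372 in Balb/c wild type and 343 to 358 in Balb/c knockout. All 9 passed the filter on low counts, and the Balb/c libraries alone were enough for that. NSG mice have no mature T cells, so the direction of this comparison could be foreseen from the choice of host. From bulk tumor RNA alone, fewer cells of a type and less RNA per cell cannot be told apart.

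**Figure D1:**
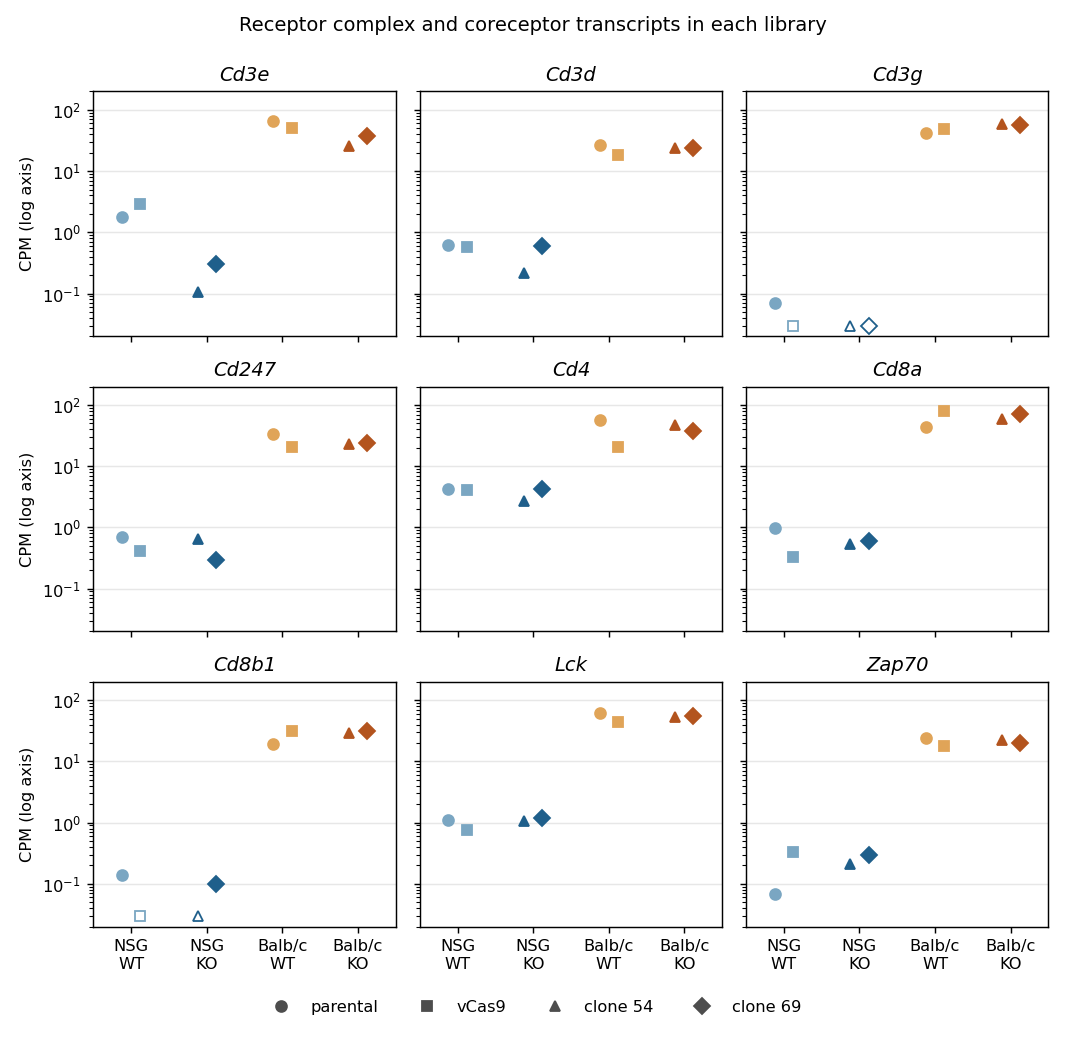
CPM of the 9 members in each library, on a log axis, by host and CD95 status (WT, wild type; KO, knockout), with a symbol for each line and open symbols at the lower edge for libraries with 0 counts. Every Balb/c library lies above every NSG library for each gene, and the NSG knockout libraries lie below the NSG wild-type libraries for Cd3e.

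Among the chains of the complex, Cd3g, which encodes the gamma chain, had 1 and 0 counts in NSG wild type (parental and vCas9) and 0 and 0 in NSG knockout (clones 54 and 69). In Balb/c it had 500 and 693 counts in wild type and 1112 and 772 in knockout. It was thus at or next to 0 in every NSG library and well read in every Balb/c library. The ratio of summed, depth-scaled counts between hosts was 1207 in wild type (95% exact interval 216 to 47717, counting error only), and in knockout Cd3g was at least 186-fold higher in Balb/c, taking 3 counts per NSG library as the limit that 0 allows.

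Cd3d, which encodes the delta chain, stood at 0.623 and 0.580 CPM in NSG wild type, 0.214 and 0.597 in NSG knockout, 26.3 and 18.5 in Balb/c wild type and 24.0 and 23.9 in Balb/c knockout. Its log2 fold change between hosts was 5.19 (SE 0.37) in wild type and 5.83 (SE 0.41) in knockout tumors. Cd247, which encodes the zeta chain with its several phosphorylation sites, stood at 0.693 and 0.414 CPM in NSG wild type, 0.642 and 0.298 in NSG knockout, 33.3 and 20.7 in Balb/c wild type and 23.1 and 24.1 in Balb/c knockout. Both genes were at a few reads per library in NSG, with no separation by CD95 status in either host. The log2 fold change of Cd247 between hosts was 5.56 (SE 0.41) in wild type and 5.63 (SE 0.44) in knockout. Cd247 shares 3007 of its 5329 exon bases with Pou2f1 on the opposite strand, and since the strand setting of the counting is not given in the sources used here, its values are uncertain.

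Cd3e, the epsilon chain that pairs with both delta and gamma, differed in its counts by CD95 status, a difference that edgeR called in neither host. It had 26 and 35 counts in NSG wild type, 1 and 3 in NSG knockout, 777 and 742 in Balb/c wild type and 492 and 514 in Balb/c knockout. On the depth-scaled scale these were 1.80 and 2.90 CPM, 0.107 and 0.298 CPM, 66.0 and 51.4 CPM, and 26.0 and 37.5 CPM. Within each host the knockout libraries lay below both wild-type libraries. Between hosts the log2 fold change was 4.65 (SE 0.34) in wild type and 7.20 (SE 0.47) in knockout, all higher in Balb/c.

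The coreceptor Cd4 differed least between hosts. It stood at 4.29 and 4.14 CPM in NSG wild type, 2.68 and 4.18 in NSG knockout, 56.3 and 20.9 in Balb/c wild type and 46.3 and 38.1 in Balb/c knockout, with log2 fold changes between hosts of 3.19 (SE 0.47) and 3.62 (SE 0.48). In NSG tumors it was the member with the most reads, 25 to 62 per library, and took 43.9% to 55.3% of the reads of the 9 members, against 6.28% to 15.1% in Balb/c. The marker list of dendritic cells, some of which transcribe Cd4, was read in the NSG libraries at a summed 53.1 to 62.0 CPM in wild type and 30.9 to 36.9 CPM in knockout. Of that list, Zbtb46 had 89 to 186 counts in each NSG library and Clec9a had 9 to 32. The mean of Zbtb46 was 13.4 CPM in NSG wild type and 9.83 in NSG knockout. In Balb/c it was 11.3 CPM in wild type and 11.6 in knockout. What part dendritic cells have in the Cd4 reads was not tested.

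Cd8a and Cd8b1, the alpha and beta chains of CD8, which mark cytotoxic T cells when paired, showed wider gaps between hosts. Cd8a stood at 0.970 and 0.331 CPM in NSG wild type, 0.535 and 0.597 in NSG knockout, 43.6 and 80.9 in Balb/c wild type and 59.0 and 71.0 in Balb/c knockout, a log2 fold change between hosts of 6.52 (SE 0.47) in wild type and 6.82 (SE 0.50) in knockout. Cd8b1 had 2 and 0 counts in NSG wild type, 0 and 1 in NSG knockout, 224 and 449 in Balb/c wild type and 550 and 431 in Balb/c knockout. Both chains were lower in the parental than in the vCas9 tumor in Balb/c. The ratio of summed, depth-scaled Cd8b1 counts between hosts was 340 in wild type (95% exact interval 93.9 to 2817) and 584 in knockout (104 to 23073), counting error only.

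Of the kinases, Lck stood at 1.11 and 0.745 CPM in NSG wild type, 1.07 and 1.19 in NSG knockout, 61.7 and 44.0 in Balb/c wild type and 53.7 and 55.1 in Balb/c knockout, with log2 fold changes between hosts of 5.80 (SE 0.29) and 5.57 (SE 0.29). Zap70 stood at 0.0693 and 0.331 CPM in NSG wild type, 0.214 and 0.298 in NSG knockout, 23.8 and 17.9 in Balb/c wild type and 22.5 and 20.3 in Balb/c knockout, with log2 fold changes of 6.70 (SE 0.47) and 6.32 (SE 0.47). Neither kinase separated wild type from knockout within a host. Across the 9 members the edgeR adjusted p-values of the host comparisons ran from 0.000186 to 0.00405. When line was added to the fit as a block, which is possible as every line grew in both hosts, all 9 remained called in wild type (largest adjusted p 0.0216) and in knockout (largest 0.00941).

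Markers of other leukocytes were compared between hosts as well. In wild-type tumors the test called 5 of the 6 tested NK cell markers higher in Balb/c and 1 lower, and 7 of 7 B cell markers higher, against 15.3% of all genes called higher. In knockout tumors it called 4 of 6 NK cell markers higher and 1 lower, but 2 of 7 B cell markers higher, against 15.7%. The median log2 fold change of the B cell markers was 5.45 in wild type and 2.28 in knockout. The 7 NK markers summed to 2.29 to 4.47 CPM in NSG wild type, 2.78 to 9.42 in NSG knockout, 29.6 to 32.9 in Balb/c wild type and 46.5 to 60.1 in Balb/c knockout. The NK receptor gene Ncr1 had 0 counts in all 4 NSG libraries, and Eomes, a factor of NK and some T cells, had 6 to 72. The gene called lower in Balb/c was Klra8, an NK receptor gene of a family that varies between strains, with 14 to 26 counts in each NSG library and 0 in each Balb/c library. NK cells also use Cd247, Lck and Zap70, and their part in those values was not tested. Pan-leukocyte markers were called higher in Balb/c for 4 of 5 genes in wild type and 5 of 5 in knockout, and dendritic cell markers for 4 of 7 and 6 of 7. Macrophage markers were called higher for 1 of 8 and lower for 2 in wild type, and higher for 7 of 8 in knockout. Of all 15310 genes tested, 2481 were called lower in Balb/c in wild type and 2354 in knockout. Neutrophil markers had a positive host value for 8 of 8 genes in wild type (median 2.11, 4 called higher) and a negative one for 7 of 8 in knockout (median -1.06, 1 called higher and 1 lower). The part of these cells in the members' values was not tested either.

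Of the 5 lymph node stroma and vessel genes, Madcam1, Ccl19 and Ccl21a had at most 3 counts in any library. Glycam1 had 51 counts in the Balb/c parental tumor, 13 in Balb/c clone 54 and at most 4 elsewhere. Cxcl13 had 80 to 103 counts in the NSG and 6 to 29 in the Balb/c libraries, and was called lower in Balb/c in both comparisons. The part of lymph node material in the members' values was not tested.

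Levels were ranked between genes per length, as CPM per kilobase of exon, while shares of reads are not corrected for length unless stated. In Balb/c wild type the order from high to low was Lck (18.0 ± 4.26), Cd8a (17.1 ± 7.25), Cd8b1 (16.9 ± 5.76), Cd3e (14.4 ± 2.53), Cd3g (13.8 ± 1.20), Cd3d (12.4 ± 3.05), Cd4 (9.58 ± 6.21), Zap70 (6.96 ± 1.40) and Cd247 (5.07 ± 1.67; SD, n = 2). Each gene in that order overlapped the next in its range over the libraries. In Balb/c knockout the order was Cd8b1 (20.4 ± 1.12), Lck (18.6 ± 0.320), Cd8a (17.9 ± 2.34), Cd3g (17.6 ± 0.544), Cd3d (13.2 ± 0.0436), Cd4 (10.5 ± 1.45), Cd3e (7.78 ± 1.99), Zap70 (7.15 ± 0.521) and Cd247 (4.42 ± 0.134). There Lck and Cd8a, Cd8a and Cd3g, and Cd3e and Zap70 were the neighbours whose ranges overlapped. Cd247 shares 3007 of its 5329 exon bases with Pou2f1 and the strand setting is not given, so its place in these orders is uncertain. In NSG tumors Cd4 was the highest per length, at 1.05 ± 0.0266 in wild type and 0.850 ± 0.263 in knockout, and did not overlap the next gene, which was Cd3e (0.576 ± 0.190) in wild type and Lck (0.386 ± 0.0298) in knockout. Cd3g was the lowest in both.

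The knockout comparison within NSG mice asked whether tumor CD95 status altered these transcripts without mature lymphocytes in the host. The edgeR test called 0 of 9 members, where 0.0131% of all genes were called. At an unadjusted p under 0.05 it had 1 member, Cd3e, against 14.0% of genes, while DESeq2 called 1 member (Cd3e) and limma-voom 0. Cd3e was 3.44 lower in knockout on the log2 scale (SE 0.56, edgeR adjusted p-value 0.123), and its adjusted p-value was 0.00222 with DESeq2 and 0.00798 with edgeR and no filter on low counts, settings that took the calls over all genes from 2 to 339 and 133. No other alternative called it, and over all alternatives its log2 fold change ran from -4.33 to -2.93. Cd3e was the only member whose groups did not overlap, and 25.8% of genes were lower in knockout without overlap. This value rested on 61 reads in wild type and 4 in knockout, a ratio of depth-scaled counts of 0.0896 (95% exact interval 0.0237 to 0.241, counting error only). Cd3d had 9 and 7 reads against 2 and 6, and Cd4 had 62 and 50 against 25 and 42. Apart from Cd3e, and from Cd3g and Cd8b1 with at most 2 counts in an NSG library, the members' log2 fold changes lay between -0.54 and 0.42.

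Markers of other cells stand beside the Cd3e value in NSG, with 0 called by edgeR in the 7 lists given here. All 8 macrophage markers had a negative log2 fold change in knockout (median -0.89, 3 at an unadjusted p under 0.05), as had 5 of 5 pan-leukocyte markers (median -0.38, 2) and 6 of 7 dendritic cell markers (median -0.84, 5), where 14.0% of all genes had such a p. All 7 epithelial markers had a positive value (median 1.30, 2 at such a p), and their sum was 1138 and 1472 CPM in wild type and 3290 and 2082 CPM in knockout. Neutrophil markers had a positive value for 7 of 8 genes (median 0.58, 0 at such a p). Of the 6 NK cell markers tested, 4 had a negative and 1 a positive value (median -0.13, 2 at such a p), and Ncr1 had no counts. B cell markers had a negative value for 4 of 7 genes and a positive one for 2 (median -0.11, 0 at such a p). The part of these cells in the Cd3e value was not tested.

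Within Balb/c mice, whose T cells are intact, the comparison asked whether tumor CD95 status altered these transcripts in the presence of an immune response, and Cd3e had the lowest log2 fold change of the members. The edgeR test called 0 of 9, where 0.176% of all genes were called, and 1 member, Cd3e, had an unadjusted p under 0.05, against 30.9% of genes. DESeq2 called 1 (Cd3e) and limma-voom 0. The median log2 fold change was 0.06 over the members and 0.06 over all genes. Cd3e was 0.89 lower in knockout on the log2 scale (SE 0.28, edgeR adjusted p-value 0.0887), with all knockout libraries below all wild-type libraries, as for 29.3% of genes. It passed the threshold with DESeq2 (adjusted p 0.0297), with no filter on low counts (0.0383) and without the clone 69 library (edgeR, log2 fold change -1.16, adjusted p 0.0308). Under these settings the calls over all genes went from 27 to 2161, 1774 and 3886. Without the parental library it stood at -0.69 (adjusted p 0.379), and over all alternatives its adjusted p ran from 0.0297 to 0.379.

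Cd3g had a value of the opposite sign, 0.35 (SE 0.21, edgeR adjusted p-value 0.297), and its knockout libraries at 58.8 and 56.3 CPM lay above the wild-type libraries at 42.5 and 48.0, as for 32.9% of genes. The other 7 members overlapped between the groups, with log2 fold changes from -0.20 (SE 0.30) for Cd247 to 0.27 (SE 0.35) for Cd8b1. Cd3d (0.09), Cd8a (0.06), Lck (0.04) and Zap70 (0.04) turned sign when the libraries were scaled by RLE size factors in place of TMM. The spread between the wild-type libraries was wide for Cd4 (38.6 ± 25.0 CPM) and Cd8a (62.2 ± 26.4 CPM; SD, n = 2).

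**Figure D2:**
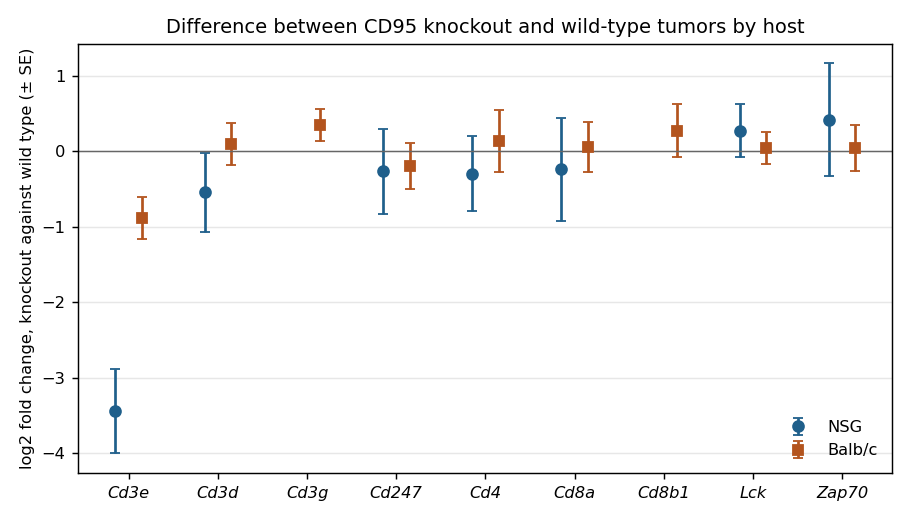
Log2 fold change between CD95 knockout and wild-type tumors (points, with SE as bars) of each member in NSG and in Balb/c mice, from the edgeR fit. Cd3g and Cd8b1 are left out in NSG, where no library had over 2 counts; Cd3e lies at -3.44 in NSG and -0.89 in Balb/c, and the other values lie between -0.54 and 0.42.

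The difference of the knockout effect between hosts was tested as an interaction. The edgeR test called 0 of 9 members and 0.00% of all genes, with 1 member (Cd3e) and 22.5% of genes at an unadjusted p under 0.05, and DESeq2 and limma-voom called 0 members. For Cd3e the difference was 2.55 (SE 0.66, edgeR adjusted p-value 0.107), Balb/c minus NSG, and its adjusted p was 0.0418 with no filter on low counts and ran up to 0.341 over the alternatives. With the line as a block it was 2.58 (adjusted p 0.256). Over all alternatives the difference for Cd3e ran from 2.05 to 3.45. The 2 knockout comparisons share no libraries, although the same lines are in both.

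The make-up of the CD3 reads gave a value within each library that does not depend on scaling. Cd3e took 49.0% of the Cd3e, Cd3d and Cd3g reads in the Balb/c parental tumor (95% exact interval 46.5 to 51.5) and 43.6% in the vCas9 tumor (41.2 to 46.0). In Balb/c knockout it took 23.9% in clone 54 (22.1 to 25.8) and 31.9% in clone 69 (29.6 to 34.2). The intervals, which cover counting error only, did not overlap between the groups, but 2 against 2 libraries cannot give a two-sided exact permutation p-value under 0.333. Cd3g took 31.5% and 40.7% in Balb/c wild type and 54.1% and 47.9% in Balb/c knockout, and Cd3d took 19.5% and 15.7% against 22.0% and 20.3%. These are shares of reads, which longer genes collect more of. Per exon length the Cd3e share was 37.0% and 33.6% in Balb/c wild type and 17.0% and 23.2% in Balb/c knockout. The 3 shares sum to the whole, so they cannot vary independently, and the level of Cd3d overlapped between the groups. The share was chosen with the Cd3e values known and restates them.

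In NSG wild type the Cd3e share was 72.2% of 36 reads (54.8 to 85.8) and 83.3% of 42 reads (68.6 to 93.0), above every Balb/c library. In NSG knockout it was 33.3% of 3 reads (0.840 to 90.6) and 33.3% of 9 reads (7.49 to 70.1), too few to place. Cd3g had 1 of those 36 reads and 0 of those 42. Of the reads of all 9 members, Cd3e took 18.4% and 30.7% in NSG wild type, 1.96% and 3.95% in NSG knockout, 17.7% and 15.4% in Balb/c wild type and 7.60% and 10.5% in Balb/c knockout.

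**Figure D3:**
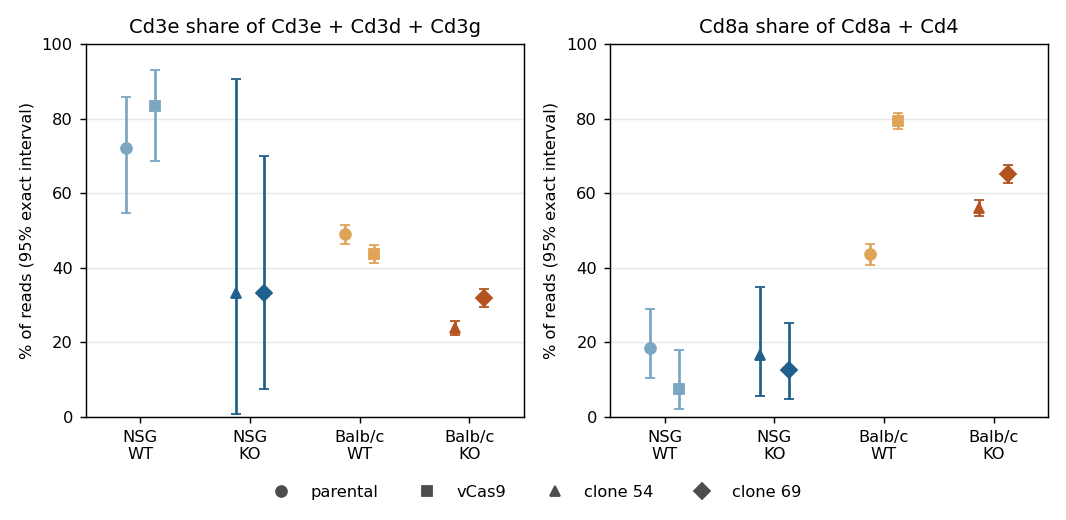
Left, share of Cd3e among the reads of Cd3e, Cd3d and Cd3g; right, share of Cd8a among the reads of Cd8a and Cd4, in percent for each library with 95% exact intervals for counting error. In Balb/c the Cd3e share is 43.6% and 49.0% in wild type and 23.9% and 31.9% in knockout, while the Cd8a share of the knockouts lies between those of the wild-type libraries.

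The balance of the coreceptors differed more between the wild-type libraries than between wild type and knockout in Balb/c. Cd8a took 43.6% of the Cd8a and Cd4 reads in the parental tumor (95% exact interval 40.8 to 46.5) and 79.4% in the vCas9 tumor (77.3 to 81.5), with the knockouts between them at 56.0% (53.8 to 58.2) and 65.1% (62.6 to 67.5). Cd4 was 2.69-fold higher in the parental than in the vCas9 tumor, whereas Cd8a was 1.86-fold and Cd8b1 1.64-fold higher in the vCas9 tumor. The groups overlapped, at 61.5% ± 25.3 in wild type and 60.6% ± 6.44 in knockout (SD, n = 2). As each line had 1 library in Balb/c, line and library cannot be told apart. B cell markers summed to 206 CPM in the parental and 44.8 CPM in the vCas9 tumor and to 7.93 and 12.2 CPM in the knockouts, and their part in the coreceptor balance was not tested. In NSG tumors Cd8a took 7.41% to 18.4% of the same reads. Cd8b1 was a steady partner of Cd8a in Balb/c, with 27.8% to 33.0% of the reads of both chains in the 4 libraries. Per exon length its share there was 48.5% to 54.7%. In NSG tumors Cd8b1 took 0% to 14.3% of the 4 to 16 reads of both chains in a library.

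The pathway downstream of the complex was described with lists of 15 proximal kinases, adaptors and effectors and 11 surface modulators and negative regulators, drawn up by function. Of 7 listed genes of the receptor's own constant regions, 0 were matched by symbol to the identifiers, so these genes were not analysed here. Between hosts, 14 of the 15 proximal genes and 11 of the 11 surface genes were called higher in Balb/c in wild type (15.3% of all genes), with median log2 fold changes of 4.52 and 3.90, and likewise 14 and 11 in knockout (15.7% of all genes), with medians of 3.26 and 3.08. The exception was Plcg1, a phospholipase used in many cell types, at -0.13 (SE 0.19, edgeR adjusted p-value 0.619) in wild type and -0.34 (SE 0.19, 0.205) in knockout. Under total-count scaling 10 of 11 surface genes remained called in knockout.

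Of the proximal genes, Themis, which tunes receptor signalling in T cells, had 1 and 0 counts in NSG wild type, 3 and 0 in NSG knockout, 494 and 506 in Balb/c wild type and 584 and 366 in Balb/c knockout. The ratio of depth-scaled counts between hosts was 1012 in wild type (95% exact interval 181 to 40004) and 188 in knockout (64.3 to 915). Txk, a kinase of the TEC family, differed between hosts by 7.22 (SE 0.60) on the log2 scale in wild type and by 3.26 (SE 0.50) in knockout. Prkcq, the protein kinase C theta of T cells, differed by 6.36 (SE 0.36) in wild type and 5.48 (SE 0.36) in knockout.

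Of the surface list, Ubash3a, a phosphatase-like restrainer of the receptor pathway, had 0 counts in all NSG libraries and was at least 51.4-fold higher in Balb/c in wild type and at least 43.5-fold higher in knockout. The adhesion receptor Cd2 differed by 7.36 (SE 0.48) and 7.70 (SE 0.52), and the scavenger-receptor family member Cd6 by 6.38 (SE 0.42) and 6.46 (SE 0.43). All these genes were higher in every Balb/c than in every NSG library. By the edgeR test none of the 26 listed genes was called between knockout and wild type in either host, with 1 in NSG and 7 in Balb/c at an unadjusted p under 0.05, where 14.0% and 30.9% of all genes had such a p. DESeq2 called 0 in NSG and 3 in Balb/c (Grap2, Pag1 and Txk, all lower in knockout) among 2161 genes it called there, and limma-voom called 0 in both. These counts are near or below those over all genes.

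In Balb/c the knockout medians were -0.42 for the proximal list and 0.05 for the surface list, beside 0.06 for all genes, and 12 of the 15 proximal genes had a value below 0, as had 7147 of the 15310 genes tested. Lat, the adaptor that ZAP-70 phosphorylates, stood at -0.31 (SE 0.28, edgeR adjusted p-value 0.471), and Ptprc, which encodes the leukocyte phosphatase CD45, at -0.38 (SE 0.24, 0.297). Txk and Pag1, the latter an adaptor that holds the LCK inhibitor CSK at the membrane, had the lowest values of their lists and were picked out after their values were seen. Txk had 139 and 57.2 CPM in Balb/c wild type and 17.5 and 27.3 CPM in Balb/c knockout, and the edgeR fit put it at -2.13 (SE 0.43, adjusted p 0.0564) on the log2 scale. Pag1 had 192 and 141 CPM against 52.1 and 73.6 CPM, or -1.40 (SE 0.26, adjusted p 0.0564) in the same fit. Both knockout libraries lay below both wild-type libraries for each, as for 29.3% of all genes. In NSG, Txk stood at 0.485 and 0.828 CPM in wild type and, higher, at 2.78 and 1.89 CPM in knockout. Pag1 stood there at 39.9 and 40.8 CPM against 42.8 and 28.3 CPM. For the difference of the knockout effect between hosts, edgeR and limma-voom called 0 of the 26 listed genes. DESeq2 called Pag1 and Txk, among 968 genes it called there.

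**Figure D4:**
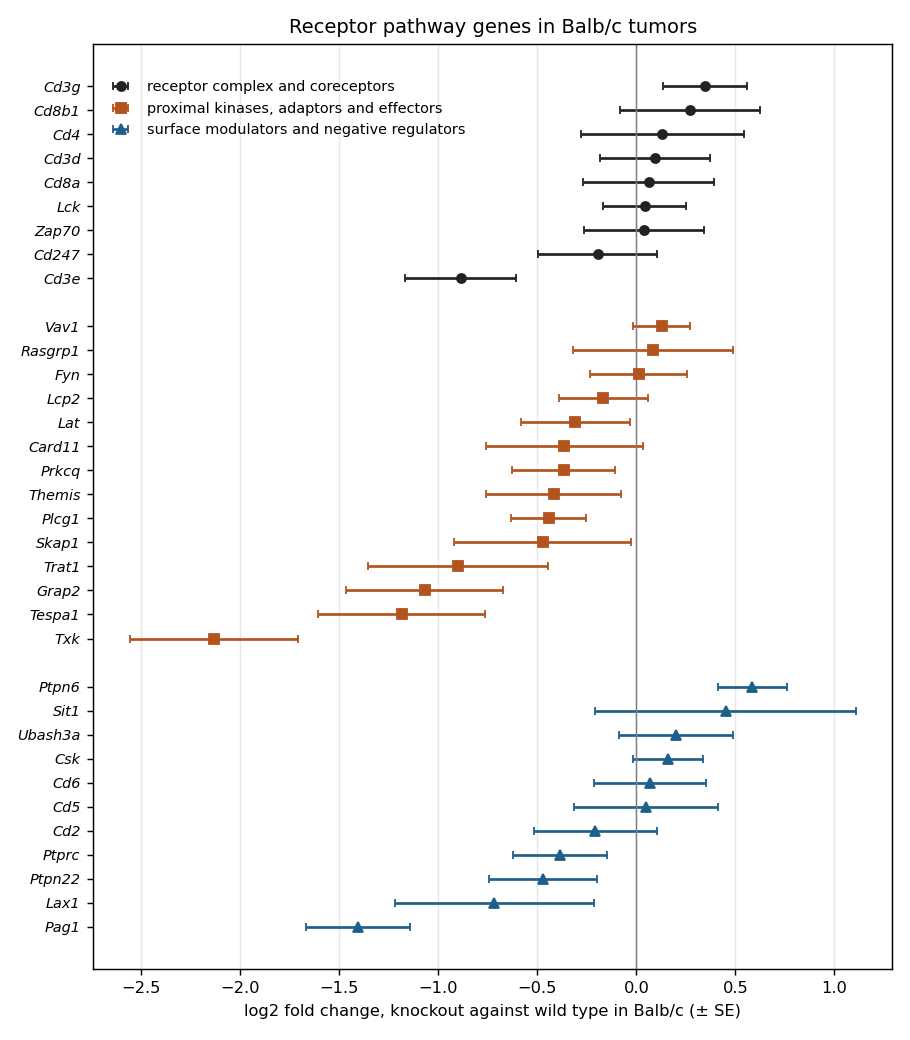
Log2 fold change between CD95 knockout and wild-type tumors in Balb/c mice (points, with SE as bars) for the 9 members and pathway genes of both lists, sorted within each list. Of the members Cd3e is the lowest at -0.89, and of the proximal genes Txk is the lowest at -2.13.

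Markers of other cells that differed between knockout and wild type in Balb/c stand beside these values. Macrophage markers summed to 2160 to 2502 CPM in Balb/c wild type and 4398 to 10788 CPM in knockout, and all 8 had a positive log2 fold change (median 1.57), with 0 called by edgeR and 8 at an unadjusted p under 0.05, where 30.9% of all genes had such a p. Neutrophil markers summed to 5932 to 7563 CPM in wild type and 519 to 2505 CPM in knockout, and all 8 had a negative value (median -2.68), with 0 called and 6 at an unadjusted p under 0.05. B cell markers summed to 44.8 to 206 CPM in wild type, the parental tumor being the higher, and 7.93 to 12.2 CPM in knockout, and all 7 had a negative value (median -3.91), again with 0 called by edgeR and 6 at an unadjusted p under 0.05. NK cell markers summed to 29.6 to 32.9 CPM in wild type and 46.5 to 60.1 CPM in knockout. Of the 6 tested, 5 had a positive value and Klra8 had no counts in either group (median 0.66), with 0 called by edgeR and 1 at such a p. Dendritic cell markers summed to 79.5 to 107 CPM in wild type and 155 to 205 CPM in knockout, with 1 of 7 called, Clec10a, a lectin of some dendritic cells and macrophages, at 1.67 (SE 0.22, edgeR adjusted p-value 0.0450). The pan-leukocyte list was called for 0 of 5 genes, with 0 at an unadjusted p under 0.05. All 7 epithelial markers had a positive value (median 0.62), with 0 called by edgeR and 0 at such a p. Their sums set the libraries of each group apart, at 769 CPM in the parental and 2020 in the vCas9 tumor, and 735 CPM in clone 54 and 4184 in clone 69. The part of these cells in the members' values was not tested.

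The genes most like the members were sought among all genes tested, by the root mean square distance, over the 8 libraries, between a gene's centred log2 CPM and the mean of the members'. The nearest 5 were Gimap7 (0.260), Gpr174 (0.307), Ubash3a (0.335), Cd96 (0.357) and Ms4a4b (0.365). Among the members, Lck (0.305) and Cd3d (0.371) lay nearest the common course and Cd4 (1.31) and Cd3g (1.23) farthest from it. Gimap7, a GTPase of lymphocytes, had 0 counts throughout the NSG tumors and 9.01 to 12.2 CPM over the 4 Balb/c tumors. Ms4a4b, a membrane protein of T cells, ran from 1.16 to 1.94 CPM in NSG and from 64.4 to 139 CPM in Balb/c. As the host sets most of this measure and the libraries share their depth scaling, the order among the nearest genes is a description.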

How the data were processed

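Counts of 8 tumor libraries, 4 groups of 2, were used as deposited by the authors, as whole reads per Ensembl gene with no normalization. The submitters' processing notes name cutadapt 1.13, STAR, HTSeq 0.6.1p1, DESeq2 and the builds mm10 and hg19, with no role or order, and the strand setting and the annotation are not given in the sources used here. Symbols were found for 24942 of 25006 identifiers, and positions and exon lengths came from GENCODE M21 (GRCm38). The members and gene lists were chosen with earlier results of these data known. In R 4.3.3, edgeR 4.0.16 (TMM, filterByExpr with a minimum count of 10, quasi-likelihood F test) was fitted to all 8 libraries with 4 group means. It tested 15310 genes with 4 residual degrees of freedom, a common biological coefficient of variation of 0.244 and Benjamini-Hochberg adjustment at 0.05, and was tested on simulated counts. SE came from the log2 fold change and the F statistic. The similarity search used a prior count of 2. Promoter stretches came from RefSeq.

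All 9 members are named. From each pathway and other-cell list and comparison, up to 3 called genes with the largest absolute change, or else the first gene, were eligible to be named; some of the genes this rule names are not reported here. A lower bound replaced a fold change where both libraries of a group had 0 counts, against 3 counts per library; the rule as first written put 3 counts or fewer under the bound, and such genes are given as a ratio with its exact interval instead. Intervals are exact Clopper-Pearson at 95%. They and the limits cover counting error only, as no molecular identifiers are stated. Lines pair the libraries across hosts, since each line was grown in both: deviations of paired libraries correlated across genes with r = 0.0875 for the wild-type lines and -0.353 for the knockout clones. Within a host, line is nested in CD95 status, so no block could be fitted there. The libraries of a group differed beyond sampling noise (chi-square per degree of freedom from 18.1 to 115). Alternatives were RLE and total-count scaling, no filter, DESeq2 1.42.0, limma-voom (limma 3.58.1), fits of only the compared libraries, thinning to 8680070 counts, the line as a block, and leaving out each library.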

Additional observations from a re-analysis of the deposited data

How the results depend on the processing

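Both host comparisons kept 9 of 9 members called under all 16 alternatives, including the block by line. In wild type the host log2 fold change ran from 2.30 to 3.81 for Cd4, 5.98 to 7.51 for Cd8a and 5.925 to 8.035 for Zap70. For Cd8b1 and Cd3g it ran from 7.39 to 11.3 and from 9.16 to 12.2. In knockout it ran from 3.33 to 3.97 for Cd4 and from 6.69 to 8.09 for Cd3e. Over all genes the block lowered the calls from 4825 to 2073 in wild type and from 4757 to 2878 in knockout, where a fit of only the compared libraries gave 2450. Leaving out 1 library gave 858 (without NSG wild type replicate 1, the parental line) to 6361 calls (without Balb/c knockout replicate 2, clone 69) in wild type, and 2461 (without NSG knockout replicate 2) to 4640 in knockout. Total-count scaling moved the higher share of all calls between hosts from 48.6% to 36.5% in wild type and from 50.5% to 37.3% in knockout. RLE scaling moved that share the other way, to 57.9% in wild type and 51.4% in knockout. In NSG, members called rose from 0 to 1 with no filter and with DESeq2, and genes called went from 2 to 133 with no filter, 339 with DESeq2, 1 with limma-voom, 1 with only the compared libraries and 0 to 1 when leaving out a library. In Balb/c, members called were 1 with no filter, with DESeq2 and without clone 69, and 0 to 1 over the libraries left out. Genes called there went from 27 to 94 with RLE scaling (the higher share from 25.9% to 16.0%), 1774 with no filter, 2161 with DESeq2, 0 with only the compared libraries, and 0 to 3886 when leaving out a library, the 3886 without clone 69. For the interaction, 1 member (Cd3e) was called with no filter, and genes called went from 0 to 674 with no filter, 968 with DESeq2 and 0 to 2370 when leaving out a library, the 2370 again without clone 69. The cause of these changes was not tested.

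None of the log2 fold changes that turned sign was called. In Balb/c they were Cd3d with RLE scaling (-0.0013) and thinning (-0.0609), and, with RLE scaling, no filter and DESeq2, Cd8a (-0.0333, -0.0105, -0.0244), Lck (-0.0526, -0.0227, -0.0439) and Zap70 (-0.0558, -0.0255, -0.0465). In NSG it was Cd8b1 with limma-voom (0.0773), and for the interaction Cd247 with RLE scaling (-0.0101) and thinning (-0.12). Leaving out a library gave in NSG -0.90 to 0.19 for Cd247, -0.77 to 0.75 for Cd8a, -3.19 to 2.66 for Cd8b1 and -0.36 to 1.76 for Zap70. In Balb/c it gave -0.22 to 0.37 for Cd3d, -0.58 to 0.19 for Cd247, -0.49 to 1.01 for Cd4, -0.31 to 0.49 for Cd8a, -0.0381 to 0.59 for Cd8b1, -0.26 to 0.31 for Lck and -0.23 to 0.26 for Zap70, and for Cd3e -1.16 to -0.69. For the interaction it gave -0.37 to 0.71 for Cd247, -0.19 to 1.32 for Cd4, -0.69 to 0.84 for Cd8a, -2.38 to 3.47 for Cd8b1, -0.55 to 0.0401 for Lck and -1.71 to 0.40 for Zap70. A group left with 1 library was assumed to vary like the others. With the line as a block no member of the interaction was called. In NSG the members had at most 62 counts in a library, which limits what could be detected there.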
